A study of Mus musculus with 14 samples.

Results

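The genes described here are 10 members of STAT3 and cytokine receptor signalling, taken by symbol from 14329 genes measured in sorted spinal microglia. They are the receptor chains *Il6ra*, *Il27ra*, *Il10ra* and *Il6st*, the kinases *Jak1* and *Jak2*, the transcription factors *Stat3* and *Stat4*, and the target genes *Socs3* and *Pim1*. All 10 had 1 entry each, and all 10 passed the filter of at least 10 reads in at least 7 libraries, which left 12645 genes for testing. *Stat4* and *Il27ra* passed it with exactly 7 libraries, so their place among the genes tested rests on the groups in which they were detected.

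Bulk RNA-seq was performed on 14 libraries of microglia sorted as CD45low CD11b+ CX3CR1+ from the dorsal lumbar spinal cord of mice aged 6 months, with 2000 cells per library. WT mice received control serum (WT Control ST, 3 libraries) or arthritogenic serum from K/BxN mice (WT K/BxN ST, 4 libraries), which causes joint inflammation with lasting pain. TASTPM mice, a transgenic line that carries mutant human *APP* and develops amyloid, received the same sera (TASTPM Control ST, 3 libraries, and TASTPM K/BxN ST, 4 libraries). Transgene expression was driven by the neuronal Thy-1 promoter on a C57BL/6 background, the mice were heterozygous, and tissue was collected 5 days after serum. Libraries held 14223015 to 20239175 reads on genes.

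Cytokines of the IL-6 family bind a specific chain such as IL-6 receptor alpha and then recruit gp130, the shared signalling chain encoded by *Il6st*. Janus kinases bound to the receptor tails phosphorylate STAT proteins, which enter the nucleus and bind palindromic DNA sites. STAT3 transcribes *Socs3*, whose product binds gp130 and JAKs and closes the loop. IL-10 uses the same STAT3 step in myeloid cells to restrain inflammation, and STAT4 is best known downstream of IL-12 in lymphocytes.

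The microglial identity of the libraries was checked first. All 9 microglial markers were present, with *Tmem119* between 42292 and 162963 and *P2ry12* between 34656 and 166138 normalized counts. The summed normalized count of 10 monocyte markers was 9030 to 20054 in WT Control ST, 13363 to 23567 in TASTPM Control ST, 9351 to 677379 in WT K/BxN ST and 10814 to 716470 in TASTPM K/BxN ST. The libraries at 379028 and above were 4 in number, libraries 1 and 2 of each K/BxN ST group, and are called monocyte-high below. *Ccr2*, the chemokine receptor of inflammatory monocytes, was at 3.35 to 86.0 normalized counts in WT Control ST and 3.13 to 20.9 in TASTPM Control ST. It ranged from 5.97 to 22987 in WT K/BxN ST and from 14.7 to 27035 in TASTPM K/BxN ST. *Vcan* was at 0 in some libraries. The 10 neutrophil markers summed to 7.54 to 2807 in WT Control ST, 37.6 to 207 in TASTPM Control ST, 29.9 to 229259 in WT K/BxN ST and 99.3 to 203780 in TASTPM K/BxN ST. Of the monocyte-high libraries, 3 were at 201642 and above for neutrophil markers, and library 2 of WT K/BxN ST was at 3629. The 4 dendritic cell markers measured of 5 listed summed to 768 to 7673 in the monocyte-high libraries and to 0.838 to 224 in the others, and 5 border macrophage markers to 1131 to 2943 and to 0 to 878. The part of these lists in the results below was not tested, apart from the fit with monocyte and neutrophil scores. In bulk libraries, fewer cells of a type and less RNA per cell cannot be told apart. The gate of the sort also required cells to lack Ly6C and CCR2. The 9 microglial markers summed to 249796 to 600069 in the monocyte-high libraries and to 734435 to 995078 in the other libraries. Values without the monocyte-high libraries are given below for *Stat3*, *Stat4*, *Socs3*, *Pim1*, *Il10ra*, *Il27ra* and *Il6st*. Leaving them out also changes the balance of sexes. The summed count of 4 Y-linked genes was 2108 and 2067 in the monocyte-high libraries of WT K/BxN ST, 37.0 and 1.09 in its other libraries, and 2737, 2693 and 852 in WT Control ST. In WT, the values without monocyte-high libraries therefore compare Y-low K/BxN libraries with Y-expressing controls, and serum and sex cannot be told apart in them. *Xist*, the gene of X inactivation, was at 2.81, 45.3 and 1706 normalized counts in libraries 1 to 3 of WT Control ST. Library 3 thus held both *Xist* and Y-linked reads, and the Y-linked score used below does not include *Xist*.

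Where the genes lie sets what the reads can tell. On GRCm39 the receptor genes span chr3:89771366-89820719 (*Il6ra*), chr8:84756916-84769253 (*Il27ra*), chr9:45165132-45180563 (*Il10ra*) and chr13:112600604-112646620 (*Il6st*). *Jak1* spans chr4:101008838-101122487 and *Jak2* chr19:29228677-29290505. *Stat3* lies at chr11:100775924-100830450, and *Stat4* at chr1:52026307-52151423. *Socs3* lies at chr11:117856905-117860898, and *Pim1* at chr17:29709581-29715086. Of the exonic bases of *Jak1*, 18.0% are shared with exons of *Raver2* on the opposite strand, but *Raver2* did not exceed 97.5 normalized counts in any library. Of the exonic bases of *Stat4*, 29.6% are shared with *Gm31812* on the opposite strand and 11.5% with *Gm28177* on the same strand, both annotated long non-coding RNAs. The library kit is not described as keeping strand, so low *Stat4* counts from these positions could not be assigned to 1 of the overlapping genes.

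The binding motif of STAT proteins, TTCNNNGAA (its own reverse complement, so both strands are covered), was searched in the 250 bases before the start of each member, taken as the start of its Ensembl canonical transcript in GENCODE vM39. Of 21770 protein-coding genes, 7.7% had it in this window. Among the members, 2 of 10 had it, *Socs3* and *Jak2*. The *Socs3* site is shown because the serum results below turn on this gene, and the *Jak2* site because it is the other member with a match. Capitals mark the motif, with 10 bases on each side.
Socs3: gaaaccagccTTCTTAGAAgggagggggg
Jak2: aagcggtcccTTCGCAGAAgtggtggtta
The *Socs3* site, on the minus strand at chr11:117860328-117860356, has its motif 223 to 215 bases before this start, inside the annotated span of the gene, which begins further upstream in other transcripts. The *Jak2* site, on the plus strand at chr19:29228529-29228557, has its motif 138 to 130 bases before the start. Annotated exons cover 173 of the 250 window bases of *Socs3* and all 250 of *Jak2*. None of 15 other genes known as STAT3 targets had the motif in this window. A match of letters is not evidence of binding.

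Compared per length, the members formed a high and a low set. The mean over 14 libraries was 2070 normalized counts per kb of exon for *Il10ra*, which encodes the ligand-binding chain of the IL-10 receptor. Next came *Socs3* at 538, *Jak1* at 437, *Stat3* at 333, *Il6ra* at 329 and *Il6st* at 239 normalized counts per kb. *Jak2* stood at 103, and the low set held *Pim1* at 16.5, *Il27ra* at 6.91 and *Stat4* at 3.17 normalized counts per kb. In WT Control ST the levels per kb of *Il6st* (335 ± 84.2, SD, n = 3), *Stat3* (320 ± 71.9, SD, n = 3) and *Il6ra* (316 ± 34.3, SD, n = 3) lay within their spread of each other. *Socs3* took its second place through the K/BxN libraries, since it was at 196 ± 87.9 (SD, n = 3) normalized counts per kb in WT Control ST and 1227 ± 1148 (SD, n = 4) in TASTPM K/BxN ST.

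**Figure D1:**
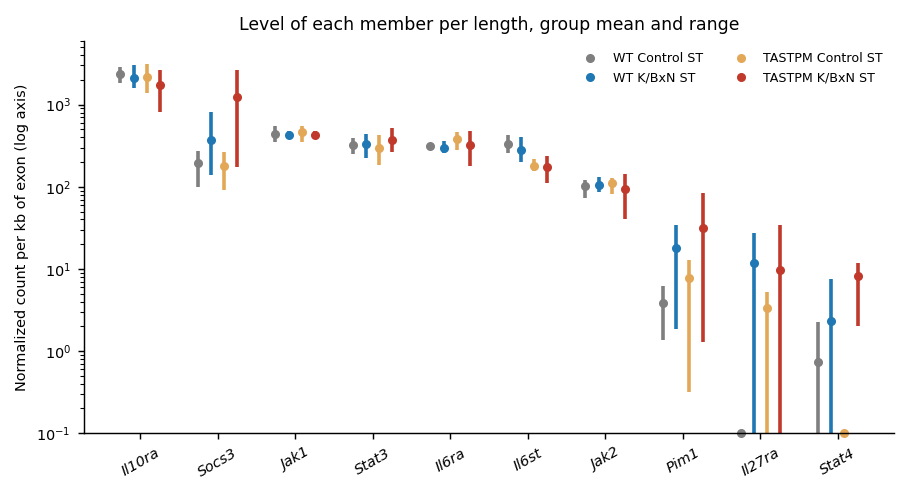
Level of each member in normalized counts per kb of exon, on a log axis, with a point at each group mean and a line from the lowest to the highest library. A mean or lower end at 0 is drawn at the lower edge, as for *Stat4* in TASTPM Control ST. *Il10ra* lies highest, and *Pim1*, *Il27ra* and *Stat4* lie well below the other members.

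The first question was whether K/BxN serum changed these genes in WT or in TASTPM microglia. In the test across all genes (limma, adjusted p below 0.05 and absolute log2 fold change above 1), none of the 10 members was called in WT, where 0.00791% of the 12645 genes were, nor in TASTPM, where 0% were. At an unadjusted p below 0.05 no member was higher or lower in WT, against 4.77% and 2.36% of all genes, and neither edgeR (0% of all genes called) nor DESeq2 (1% with the filter and 1.92% without it) called one there. In TASTPM 2 of 10 members, *Stat4* and *Socs3*, were higher at that level against 2.62% of all genes, and none was lower against 1.6%. No member of WT separated the serum groups without overlap (3.67% of all genes were placed higher and 3.71% lower in that way). In TASTPM *Stat4* alone did, against 2.67% higher and 2.74% lower over all genes. *Stat4* passed the filter on low counts only with the TASTPM K/BxN ST libraries counted, so neither TASTPM result for it is independent of the filter. The median log2 fold change of the members was 0.04 in WT and -0.08 in TASTPM, beside 0.06 and 0.01 for all genes.

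*Stat3* itself was abundant in every library. It was at 3968, 3218 and 2518 normalized counts in WT Control ST and at 4423, 3753, 2289 and 2788 in WT K/BxN ST. It was at 2848, 1846 and 4265 normalized counts in TASTPM Control ST and at 5208, 3097, 4188 and 2650 in TASTPM K/BxN ST. The groups overlapped in both genotypes. K/BxN serum gave a log2 fold change of 0.01 ± 0.32 (SE) in WT and 0.38 ± 0.32 (SE) in TASTPM, with limma adjusted p = 0.996 and 0.964. Without the monocyte-high libraries it was -0.33 in WT and 0.24 in TASTPM. With a score of the Y-linked genes in the fit it was 0.37 in WT and 0.02 in TASTPM, and the difference between the genotypes turned from 0.36 to -0.34. Over the 14 libraries the genes whose mean-centred log2 profile lay closest to *Stat3* were *Flii*, *Sf1* and *Ap2m1*, with mean absolute differences of 0.151, 0.168 and 0.171.

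*Stat4*, the STAT of IL-12 signalling, was low throughout and at 0 in 6 of 14 libraries. It was at 0 in all 3 libraries of TASTPM Control ST and at 105, 78.0, 94.0 and 18.1 normalized counts with K/BxN serum in these mice, from 101, 82, 80 and 16 reads. In WT Control ST it was at 0, 0 and 20.1, and in WT K/BxN ST at 66.8, 13.3, 2.39 and 0 normalized counts. The TASTPM serum groups did not overlap, the WT groups did, and both library 1 of WT K/BxN ST and library 3 of WT Control ST exceeded the lowest TASTPM K/BxN ST library. Against a floor of 3 reads per library, the mean of TASTPM K/BxN ST was at least 24.1-fold higher than that of TASTPM Control ST.

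The log2 fold change of *Stat4* in TASTPM was 5.96 ± 1.497 (SE), a value that depends on the pseudocount of 1 because the control group was at 0. Its limma adjusted p was 0.964, and the two-sided exact permutation test over libraries gave p = 0.0286, the smallest that 4 against 3 libraries can give. *Stat4* reached the 7 libraries of the filter only with those of TASTPM K/BxN ST counted, so this p is not independent of the filter. The same holds for its other comparisons that include this group. In WT the log2 fold change was 1.45 ± 1.497 (SE). The difference between the genotypes, 4.51 ± 2.12 (SE), had a limma adjusted p of 0.999. Of the 12645 genes 0% were called for that difference, and no member was, nor by edgeR (0%) or DESeq2 (0.0949% with the filter and 0.251% without it). At an unadjusted p below 0.05 the count of members was also 0, against 1.42% of all genes higher and 1.63% lower. With the Y-linked score in the fit the difference for *Stat4* was 2.48.

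The call of *Stat4* depended on the tool and on the filter. With no filter on low counts, DESeq2 called it in TASTPM from the recovered reads (adjusted p = 0.0280), where this rule called 0.614% of all genes. DESeq2 with the filter gave it no adjusted p (unadjusted p = 0.000111), and edgeR with the filter did not call it (adjusted p = 0.996). Without the monocyte-high libraries, 93.98 and 18.1 normalized counts remained in TASTPM K/BxN ST against the controls at 0, and the log2 fold change was 5.41 with a limma adjusted p of 0.996. DESeq2 without the filter no longer called it without these libraries (log2 fold change 8.22, adjusted p = 0.966). In WT K/BxN ST the remaining libraries were at 2.39 and 0, and the log2 fold change turned to -0.58. The closest profiles over the 14 libraries were those of *Tbc1d10c*, *Plekhg1* and *Cd79a*, with mean absolute log2 differences of 1.12, 1.28 and 1.31. *Cd79a*, a component of the B cell receptor, was at 0 to 7.77 normalized counts in TASTPM Control ST. It reached 244 normalized counts within TASTPM K/BxN ST but was at 0 in 1 of its 4 libraries. *Cd79b*, the larger part of the sums below, was at 732 to 834 in TASTPM Control ST and at 376 to 867 in TASTPM K/BxN ST. The 2 B cell markers measured of 4 listed, *Cd79a* and *Cd79b*, summed to 691 to 1068, 849 to 994, 732 to 842 and 621 to 905 in the WT Control ST, WT K/BxN ST, TASTPM Control ST and lastly TASTPM K/BxN ST groups. Their part in the *Stat4* result was not tested, and markers of T and NK cells were not analysed here.

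*Socs3*, the feedback inhibitor that STAT3 transcribes, had the widest range among the abundant members. It was at 670, 330 and 933 normalized counts in TASTPM Control ST and at 5708, 1611, 9531 and 620 in TASTPM K/BxN ST. In WT Control ST it was at 975, 759 and 358, and in WT K/BxN ST at 2909, 1139, 495 and 761. Libraries 1 to 3 of TASTPM K/BxN ST exceeded every control library, while library 4 lay inside the control range. In WT only the 2 monocyte-high libraries exceeded the controls.

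The log2 fold change of *Socs3* was 2.20 ± 0.80 (SE) in TASTPM (limma adjusted p = 0.964) and 0.72 ± 0.80 (SE) in WT (limma adjusted p = 0.831). The difference between the genotypes was 1.48 ± 1.13 (SE), with a limma adjusted p of 0.999. Without the monocyte-high libraries the TASTPM value was 2.04, resting on 9531 and 620 normalized counts, and the WT value was -0.07. With the score of monocyte and neutrophil markers as a covariate, the values were 1.66 in TASTPM and 0.23 in WT. The largest *Socs3* value, in library 3 of TASTPM K/BxN ST, came with a monocyte sum of 12213. That sum lay below the range of TASTPM Control ST (13363 to 23567) and inside that of WT Control ST (9030 to 20054).

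Other measures moved with *Socs3* inside TASTPM K/BxN ST. The 10 measured of 11 listed immediate early genes, which respond to acute stimulation and to cell handling, summed to 23966, 15885, 21760 and 12835 in libraries 1 to 4, against 12521 to 16381 in TASTPM Control ST. Their part in the result was not tested. The summed count of the Y-linked genes was 2272, 1872, 2145 and 46.3 in the same libraries and 2.09, 3.33 and 2577 in TASTPM Control ST, so the libraries differed in sex within groups. With these genes, as a mean log2 score, in the fit, *Socs3* was at 1.37 in TASTPM and 1.56 in WT, and the difference between the genotypes turned to -0.19. The closest profiles to *Socs3* were *Ripor2*, *Hpcal1* and *Clic4*, at mean absolute log2 differences of 0.589, 0.619 and 0.620.

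*Pim1*, a serine/threonine kinase gene also transcribed by STAT3, was low. It was at 21.6, 14.3 and 4.78 normalized counts in WT Control ST and at 121, 77.1, 45.4 and 6.54 in WT K/BxN ST. In TASTPM it was at 44.9, 1.11 and 35.4 under control serum and at 296, 75.1, 64.6 and 4.51 under K/BxN serum. In each genotype 3 of 4 K/BxN libraries exceeded all controls, and library 4 lay within the control range. The log2 fold change was 1.77 ± 1.42 (SE) in WT and 1.81 ± 1.42 (SE) in TASTPM, with limma adjusted p = 0.789 and 0.964. Without the monocyte-high libraries it was 0.57 in WT and 0.32 in TASTPM, and with the monocyte and neutrophil score as a covariate 0.62 and 0.52. With the Y-linked score it was 3.16 in WT (unadjusted p = 0.0212, adjusted p = 0.359, limma) and 0.43 in TASTPM, and the difference between the genotypes was -2.73. The lowest *Pim1* and the lowest *Socs3* value of TASTPM K/BxN ST came from the same library.

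**Figure D2:**
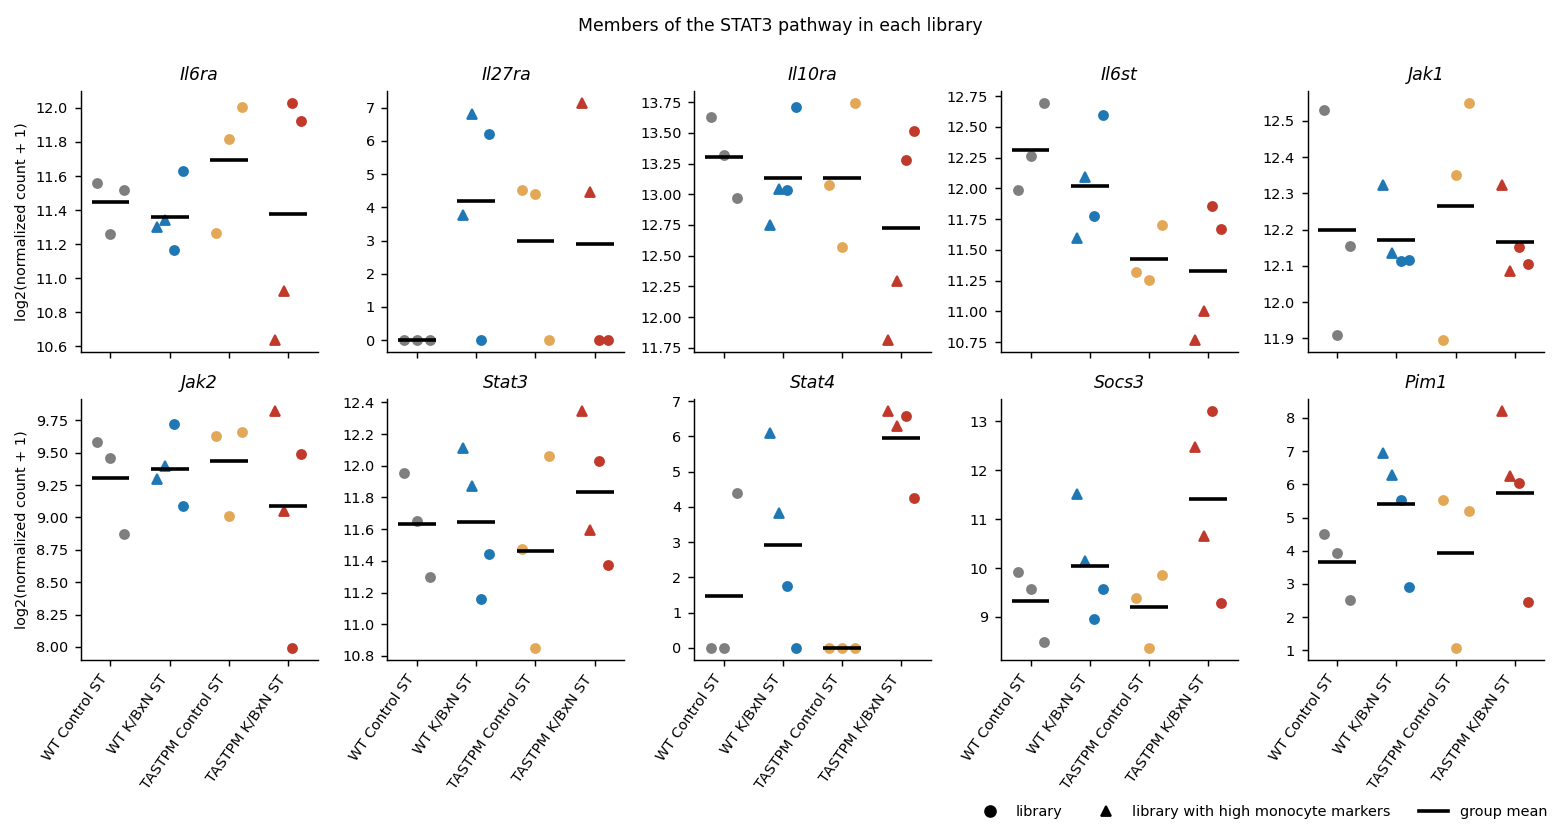
Value of each member in every library as log2(normalized count + 1), with the 4 groups on the x axis, triangles for the monocyte-high libraries and a bar at each group mean. *Stat4* is at 0 in TASTPM Control ST and above it in TASTPM K/BxN ST, *Socs3* spreads from 620 to 9531 normalized counts within TASTPM K/BxN ST, and *Il6st* is lower in TASTPM.

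Averaged over both genotypes, *Stat4* and *Socs3* were again the members furthest from 0 relative to their error. *Stat4* had a log2 fold change of 3.71 ± 1.06 (SE), with limma adjusted p = 0.466 and an exact permutation p of 0.0180 within genotypes (two-sided). *Socs3* had 1.46 ± 0.56 (SE), with limma adjusted p = 0.536 and exact permutation p = 0.0596. *Pim1* had 1.79 ± 1.00 (SE), with limma adjusted p = 0.583, and ranged from 1.08 to 2.34 when 1 library was left out. At an unadjusted p below 0.05, 2 of 10 members were higher against 5.79% of all genes and none lower against 3.46%, and limma called none against 0% of all genes. DESeq2 called *Stat4* and *Socs3* without the filter (adjusted p = 0.0265 and 0.0431, with 3.06% of all genes called) and *Stat4* alone with it (adjusted p = 0.0366, 1.42% called). DESeq2 with no filter called neither once the monocyte-high libraries were left out, with *Stat4* at 2.87 (adjusted p = 1.00) and *Socs3* at 1.41 (adjusted p = 0.954), and 0.181% of all genes were called. The limma values without these libraries were 2.41 for *Stat4*, 0.99 for *Socs3* and 0.45 for *Pim1*.

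**Figure D3:**
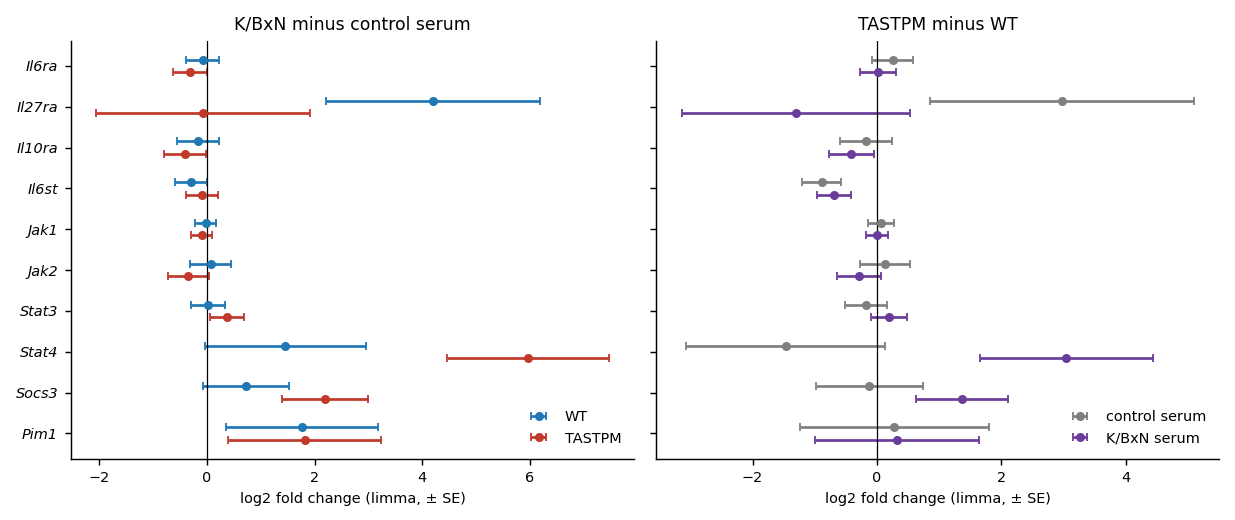
Log2 fold change of each member with its SE from limma, for K/BxN against control serum in WT and TASTPM (left) and for TASTPM against WT under each serum (right). *Stat4* and *Socs3* stand at 5.96 and 2.20 in TASTPM, and *Il6st* is the member below 0 by more than 2 SE in both comparisons of genotype.

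Among the receptors, *Il10ra* overlapped between sera in both genotypes. It was at 8647, 6076 and 13703 normalized counts in TASTPM Control ST and at 3598, 5025, 9914 and 11670 in TASTPM K/BxN ST. The 2 lowest libraries were the monocyte-high ones. In TASTPM the log2 fold change was -0.41 ± 0.39 (SE), with limma adjusted p = 0.964, and it turned to 0.26 without those libraries. It ranged from -0.687 to -0.100 when 1 library was left out, both ends without a TASTPM Control ST library, 2 and 3 in that order. In WT it was at 12683, 10213 and 8034 normalized counts under control serum and at 6879, 8451, 8400 and 13407 under K/BxN serum.

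*Il6ra*, the IL-6 binding chain, was at 3015, 2451 and 2927 normalized counts in WT Control ST and at 2521, 2595, 2301 and 3173 in WT K/BxN ST. In TASTPM it was at 2460, 3603 and 4117 under control serum and at 1591, 1941, 4178 and 3876 under K/BxN serum. Again the monocyte-high libraries of TASTPM held the lowest values, and the groups overlapped.

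*Il27ra*, which pairs with gp130 to bind IL-27, was detected in 7 of 14 libraries. It was at 0 in all 3 WT Control ST libraries and at 12.6, 112, 0 and 73.1 normalized counts under K/BxN serum. In TASTPM it was at 21.9, 20.0 and 0 under control serum and at 140, 20.9, 0 and 0 under K/BxN serum. Against the floor of 3 reads per library the WT K/BxN ST mean was at least 18.1-fold higher, with 1 of 4 libraries at 0. This bound was 10.5-fold without library 2, the highest, an alternative chosen after the data were seen. In WT the log2 fold change was 4.20 ± 1.98 (SE), with limma adjusted p = 0.698, and 3.11 without the monocyte-high libraries. It ranged from 3.33 to 5.60 when 1 library was left out. The difference between genotypes was -4.27 ± 2.81 (SE), with limma adjusted p = 0.999. The closest profiles were *Knstrn*, *Cip2a* and *Gm43692* at mean absolute log2 differences of 0.941, 0.977 and 1.02, and *Knstrn* and *Cip2a* encode proteins of dividing cells.

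*Jak1* varied least of the members. This kinase, which serves all of these receptors, was at 5920, 3846 and 4559 normalized counts in WT Control ST and at 5122, 4496, 4429 and 4437 in WT K/BxN ST. It was at 3807, 5224 and 5994 in TASTPM Control ST and at 5122, 4348, 4548 and 4406 in TASTPM K/BxN ST. Its highest library was 1.57 times its lowest, the smallest such ratio among the 8 members above 0 in every library. *Jak2* was at 767, 705 and 468 normalized counts in WT Control ST and at 628, 673, 843 and 544 in WT K/BxN ST. In TASTPM it was at 792, 516 and 810 under control serum and at 906, 529, 254 and 719 under K/BxN serum. For both kinases the serum groups overlapped in each genotype.

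**Figure D4:**
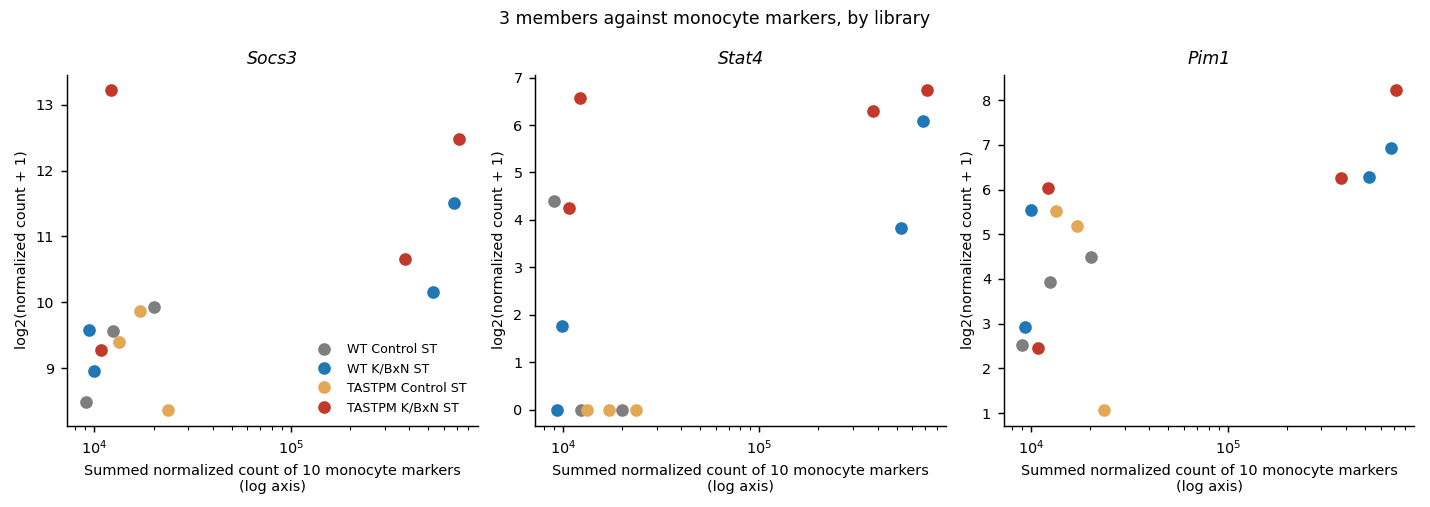
*Socs3*, *Stat4* and *Pim1* as log2(normalized count + 1) against the summed normalized count of 10 monocyte markers (log axis), with 1 point per library coloured by group. The 4 monocyte-high libraries lie at 379028 to 716470 on the x axis, and the highest *Socs3* library lies at 12213.

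The second question was whether the members differed between TASTPM and WT. None of the 10 was called by limma under control serum or under K/BxN serum, where 0% and 0% of all genes were called, and edgeR and DESeq2 called none of them either. DESeq2 called 0.324% of all genes under control serum with the filter and 0.586% without it, and edgeR under either serum and DESeq2 under K/BxN serum called 0%. *Il6st*, the gp130 chain shared by the IL-6 family, was the one member lower in TASTPM under both sera at an unadjusted p below 0.05, against 2.16% of all genes lower under control serum and 0.902% under K/BxN serum. *Stat4* was higher under K/BxN serum at that level, against 1% of all genes.

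*Il6st* was at 4059, 4911 and 6627 normalized counts in WT Control ST and at 2555, 2440 and 3339 in TASTPM Control ST. It was at 3101, 4374, 3505 and 6204 in WT K/BxN ST and at 1742, 2055, 3703 and 3264 in TASTPM K/BxN ST. Under control serum the genotypes did not overlap, a placement that 4.71% of all genes shared in the lower direction. Under K/BxN serum 2 of 4 TASTPM libraries exceeded the lowest WT library, and the genotypes overlapped.

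The group means of *Il6st* were 5199 ± 1308 (SD, n = 3) and 2778 ± 489 (SD, n = 3) under control serum, and 4296 ± 1379 (SD, n = 4) and 2691 ± 941 (SD, n = 4) under K/BxN serum, WT first. The log2 fold change was -0.89 ± 0.32 (SE) under control serum, with limma adjusted p = 0.750, and -0.69 ± 0.27 (SE) under K/BxN serum, with limma adjusted p = 1.00. Averaged over sera, a comparison added after these values were seen, it was -0.79 ± 0.21 (SE), with limma adjusted p = 0.717 and a two-sided exact permutation p of 0.00714. In that comparison limma called no member against 0% of all genes, and *Il6st* was the 1 member lower at an unadjusted p below 0.05, against 2.05% of all genes. Without the monocyte-high libraries the value under K/BxN serum was -0.42, with an unadjusted p of 0.189 in the limma fit. The averaged value was then -0.66, and with the monocyte and neutrophil score in the fit -0.74.

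**Figure D5:**
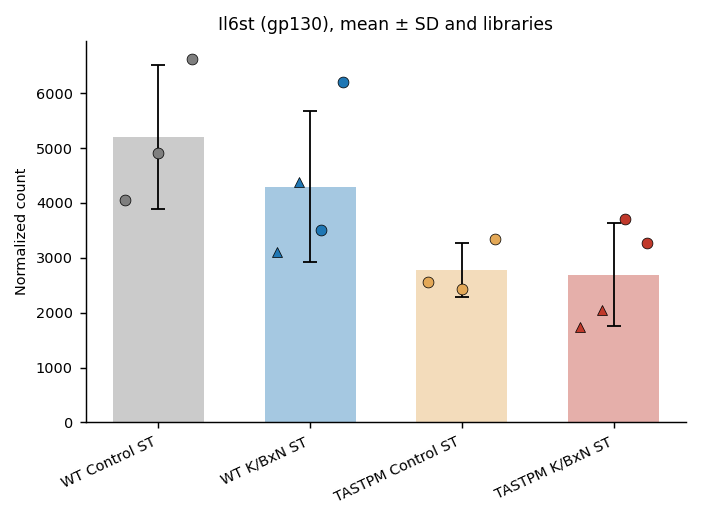
Normalized count of *Il6st* by group, with bars for the mean, error bars for the SD (n = 3 or 4), points for libraries and triangles for monocyte-high libraries. Both TASTPM means, 2778 and 2691, lie below both WT means, 5199 and 4296.

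*Stat4* under K/BxN serum had a log2 fold change of 3.04 ± 1.39 (SE) between TASTPM and WT (limma adjusted p = 1.00, two-sided exact permutation p = 0.0571). *Socs3* under the same serum had 1.36 ± 0.74 (SE), with limma adjusted p = 1.00. The values were 4.53 for *Stat4* and 1.99 for *Socs3* without the monocyte-high libraries. With the Y-linked score *Socs3* was at 0.89, and it ranged from 0.757 without library 3 of TASTPM K/BxN ST to 2.07 without library 4.

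The wider pathway was read from 75 further genes, of which 54 had an entry and 53 were tested. None was called by limma, edgeR or DESeq2 in either genotype with serum. Of all genes, limma called 0.00791% in WT and 0% in TASTPM, and edgeR 0% in each. DESeq2 called 1% of all genes in WT and 0.142% in TASTPM with the filter, and 1.92% and 0.614% without it. Averaged over genotypes, limma and edgeR called none, against 0% of all genes for each. DESeq2 then called 2, *Bcl3* and *Cebpb*, with and without the filter, beside 1.42% and 3.06% of all genes. At an unadjusted p below 0.05, 2 were higher and 2 lower in WT, and 3 were higher and 1 lower in TASTPM, each beside the shares of all genes given above. Without overlap between sera, 1 was higher and 5 lower in WT (3.67% and 3.71% of all genes), and 2 were higher and 1 lower in TASTPM (2.67% and 2.74%). The median log2 fold change of the 53 genes was -0.01 in WT and 0.18 in TASTPM.

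Of 17 ligands, 5 were tested. *Il6*, whose product signals through gp130, was at 416, 227 and 215 normalized counts in WT Control ST and at 99.4, 54.0, 232 and 133 in WT K/BxN ST. It was at 473, 450 and 297 in TASTPM Control ST and at 83.2, 187, 466 and 199 in TASTPM K/BxN ST. In each genotype 3 of 4 K/BxN libraries lay below every control. *Il6* had log2 fold changes of -1.26 ± 0.58 (SE) in WT and -1.03 ± 0.58 (SE) in TASTPM, with limma adjusted p = 0.695 and 0.964. *Il27*, a subunit of the cytokine that *Il27ra* binds, did not exceed 59.9 normalized counts in any library.

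Of 21 further receptors, 15 were tested, and the median log2 fold change was -0.13 in WT and -0.12 in TASTPM. *Il11ra1*, the IL-11 binding chain, was at 1014 to 1322 normalized counts in WT Control ST and at 502 to 774 in WT K/BxN ST, a log2 fold change of -0.87 ± 0.29 (SE) with limma adjusted p = 0.594. *Il2rg*, the common gamma chain, had 0.82 ± 0.78 (SE) in WT and 0.91 ± 0.78 (SE) in TASTPM. *Il12rb2*, an IL-12 receptor chain that signals through STAT4, was at 0 to 60.0 normalized counts in TASTPM Control ST and did not exceed 73.8 in TASTPM K/BxN ST. The 5 genes placed lower without overlap in WT, named after their values were seen, were *Il10rb*, *Il11ra1*, *Ifnar2*, *Ifngr2* and *Bcl2l1*.

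*Il10rb*, the second chain of the IL-10 receptor, was also the 1 pathway gene placed lower without overlap in TASTPM. It was at 5097 to 6858 normalized counts in WT Control ST and at 3678 to 4872 in WT K/BxN ST. In TASTPM it was at 5264 to 6745 under control serum and at 2909 to 5070 under K/BxN serum. Its log2 fold change was -0.44 ± 0.21 (SE) in WT and -0.47 ± 0.21 (SE) in TASTPM, with limma adjusted p = 0.698 and 0.964.

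All 7 further kinases and STATs were tested. In TASTPM all 7 log2 fold changes were above 0, and in WT 5 of 7 were, with none called. *Tyk2*, a Janus kinase of the IL-10 and IL-12 receptors, had 0.69 ± 0.29 (SE) in WT (limma adjusted p = 0.684), and *Stat6* had 0.33 ± 0.28 (SE) there. *Stat2*, a transcription factor gene of interferon signalling, had 0.54 ± 0.37 (SE) in TASTPM. It was at 365 to 394 normalized counts in TASTPM Control ST and at 466 to 660 in TASTPM K/BxN ST, without overlap.

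Of 15 further inhibitors, 13 were tested, with 6 positive and 7 negative in WT and 8 positive and 5 negative in TASTPM. *Socs7* had log2 fold changes of 2.05 ± 1.43 (SE) in WT and 1.08 ± 1.43 (SE) in TASTPM. It was at 0.937, 6.71 and 89.8 normalized counts in WT Control ST and at 22.9 to 85.8 in WT K/BxN ST. In TASTPM its mean was 59.8 under control serum, with library 3 at 0.909, and 60.5 under K/BxN serum. The fold changes of *Socs7* therefore depend on low counts in single control libraries. *Ptpn11*, the phosphatase SHP2, had 1.03 ± 0.50 (SE) in WT. *Socs1*, the inhibitor of interferon signalling, had 1.05 ± 0.79 (SE) in TASTPM, and *Socs5* had -0.53 ± 0.33 (SE) averaged over genotypes. None passed the limma test.

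Of 15 further STAT3 target genes, 13 were tested. *Bcl3*, a nuclear IκB protein gene, was at 74.2, 52.2 and 234 normalized counts in TASTPM Control ST and at 4756, 1199, 424 and 62.0 in TASTPM K/BxN ST, a log2 fold change of 2.67 ± 1.28 (SE). In WT it was at 139, 272 and 248 under control serum and at 1791, 1769, 103 and 119 under K/BxN serum, so that the monocyte-high libraries alone exceeded the controls. *Il1rn*, the IL-1 receptor antagonist gene, had 3.70 ± 2.58 (SE) in WT and 2.32 ± 2.58 (SE) in TASTPM. *Birc5*, a gene of dividing cells, was at 1008, 517, 0 and 1.09 in WT K/BxN ST and at 1609, 618, 2.35 and 0 in TASTPM K/BxN ST, with the monocyte-high libraries first.

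The following were named after their values were seen. *Cebpb*, a transcription factor gene of myeloid inflammation, was at 796 to 1540 normalized counts in WT Control ST and at 1630 to 4743 in WT K/BxN ST, the 1 pathway gene placed higher without overlap in WT. Its log2 fold change was 1.24 ± 0.44 (SE) in WT and 0.95 ± 0.44 (SE) in TASTPM, with limma adjusted p = 0.629 and 0.964. *Junb*, an AP-1 subunit and immediate early gene, was at 2251 to 3116 normalized counts in TASTPM Control ST and at 3347 to 6113 in TASTPM K/BxN ST, with its highest values in the same libraries as *Socs3*, 1 and 3. Together with *Stat2* it made up the 2 pathway genes placed higher without overlap in TASTPM.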

How the data were processed

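Members, lists and comparisons were chosen with earlier results of these data known. The authors amplified cDNA with SMART-Seq v4, aligned reads to GRCm39 with HISAT2 2.1 and counted them with featureCounts 1.5.2, per the submitters' processing notes and the paper's methods. The deposited values are a normalized signal, the count of a gene divided by 1 factor per library. Whole reads were recovered for 100% of values (tolerance 0.05 read), and 7 repeated entries were dropped. Replicate numbers of TASTPM K/BxN ST come from the labels, and libraries of other groups are numbered in deposited order. The study used separate mice.

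log2(value + 1) was tested with limma 3.58.1 (trend, 1 fit of 14 libraries, Benjamini-Hochberg adjustment) in R 4.3.3. This test followed from the unit. edgeR 4.0.16 and DESeq2 1.42.0 on recovered reads were alternatives. Scripts were tested on simulated data. Exact permutation tests ran over libraries.

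Named beside the members were, per pathway list and serum contrast, the 2 tested genes with the largest absolute log2 fold change, and the 3 closest profiles of *Stat3*, *Stat4*, *Socs3* and *Il27ra*. A gene that this rule names is not reported here. Exon lengths, overlaps and promoters are from GENCODE vM39, a later annotation than the counting.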

Additional observations from a re-analysis of the deposited data

Results flagged for a closer look

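In the 2 groups of 4 libraries, each member was checked for a library far from the others, 20 checks in all, and 2 passed the critical value of 0.829 for the gap over the range. Chance passes about 1 in 20. The value of *Il27ra* in library 1 of TASTPM K/BxN ST, 140.4 normalized counts, lay far from 20.9, 0 and 0 in the other libraries. The value of *Jak1* in library 1 of WT K/BxN ST, 5122 normalized counts, lay far from 4429 to 4496 in the others, a spread smaller than that of the control libraries. Both libraries were monocyte-high, and the part of the monocyte markers in these values was not tested.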

How the results depend on the processing

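No paired analysis was possible because the labels number the libraries 1 to 14 and no number is shared between groups. The counts of members called, 0 in each of 7 comparisons, stayed at 0 in 218 of 221 alternative fits. The exceptions were DESeq2 without a filter, which called 1 member (*Stat4*, log2 fold change 8.62) in TASTPM with serum and 2 (*Socs3*, 1.84, and *Stat4*, 5.13) with serum averaged over genotypes, and DESeq2 with the filter, which called 1 (*Stat4*, 5.13) in the averaged contrast. The cause was not tested. Leaving out each library in turn gave 0 to 0 members called in every comparison.

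Of 655 alternative values of 21 named log2 fold changes, 632 kept their direction and call and 19 changed direction. Without the 4 monocyte-high libraries, with limma, edgeR and DESeq2 without a filter in that order, the WT serum values were -0.0666, -0.139 and -0.145 for *Socs3*, -0.585, -2.38 and -2.49 for *Stat4*, and -0.332, -0.338 and -0.343 for *Stat3*. The TASTPM serum values of *Il10ra* were 0.263, 0.175 and 0.186. The last 2 of these 3 tools were added after the data were seen. With the monocyte and neutrophil score as a covariate, *Stat3* in WT was at -0.217 and *Il10ra* in TASTPM at 0.0855. *Stat3* in WT was also at -0.0196 with upper quartile scaling, and ranged from -0.156 to 0.175 when 1 library was left out, below 0 without WT Control ST library 3 (-0.156), WT K/BxN ST library 1 (-0.142) or library 2 (-0.0626). With the Y-linked score, the difference between genotypes for *Socs3* was -0.187.

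When 1 library was left out, the TASTPM serum value ranged from 1.60 to 2.91 for *Socs3*, from 5.71 to 6.53 for *Stat4*, from 0.387 to 2.91 for *Pim1* and from 0.0698 to 0.674 for *Stat3*, and the averaged genotype value of *Il6st* from -0.878 to -0.693. The WT serum value ranged from 0.231 to 1.08 for *Socs3* and from 0.400 to 2.92 for *Stat4*, both lowest without WT K/BxN ST library 1, and the difference between genotypes from 0.878 to 2.19 for *Socs3* and from -5.76 to -3.31 for *Il27ra*. *Stat4* and *Il27ra* could not be fitted with at least 10 reads required in all 14 libraries. Library totals moved the WT serum median of all genes from 0.06 to 0.11. Counts of 0 to 21 reads limit what can be said of *Stat4* and *Il27ra* in the control libraries.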
